A study of Rattus norvegicus with 22 samples.

Results

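Cytokines, chemokines and members of the tumour necrosis factor (TNF) family are the secreted signals and cell surface receptors through which immune cells, glia and blood vessels communicate after an injury. Their ligands, receptors and induced proteins were examined here in rat cortex 24 h after penetrating ballistic brain injury (PBBI). The 47 genes were chosen by symbol, from 32545 gene identifiers in all. The deposited table carries identifiers only, and 1822 of them could be named from the authors' tables. Of the named genes, 59 had a symbol that begins as those of chemokines (Ccl, Cxcl) and their receptors, interleukins, TNF-family members, colony-stimulating factors, oncostatin M, leukaemia inhibitory factor, interferon receptors, transforming growth factor beta or bone morphogenetic proteins do. The 12 left out were Ccl2, Ccl7, Ccl12, Ccl20, Ccl22, Ccr2, Cxcl1, Cxcl3, Cxcr1, Il11, Il4r and Tnfrsf12a. The naming key lists genes that the authors called in the injured hemisphere against sham, so all 47 were in effect selected on that contrast. The ipsilateral values are therefore a description and support nothing. Genes outside the authors' tables have no name here, so no gene of these families just outside the authors' threshold can be shown.

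Chemokines guide white blood cells along gradients and act through receptors on the cell surface. Interleukin-1 (IL-1), TNF and the interleukin-6 (IL-6) family are released early after tissue damage, and their receptors feed the NF-kappaB, AP-1 and STAT transcription factors. Decoy receptors and receptor antagonists of the same families limit these signals, and in brain both resident microglia and astrocytes and incoming blood cells are known to make and receive them.

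Adult male rats (Sprague-Daley in the labels, Sprague-Dawley in the paper) carried electrodes for EEG and EMG recording. In 6 rats a probe was inserted through the right frontal pole and a balloon on it was briefly inflated (PBBI), and 5 sham rats went through the same procedures with no probe inserted. Cortex of the right (ipsilateral) and the left (contralateral) hemisphere was taken from each rat, which gave 22 libraries with total counts between 42085341 and 63412426. Sham surgery is thus the only control, and both samples of a rat share that animal, so contralateral tissue is not an uninjured rat. The sample titles carry PFC for both samples of rat 81 and the contralateral sample of rat 82, and CC or CI for the others. Whether these labels mean different parts of cortex is not given, so for rat 81 the label and the animal cannot be told apart. Levels are counts scaled to library size (CPM, after TMM normalization) and are given per rat, as mean ± SD over 6 PBBI or 5 sham rats. Sham values are listed in the order of rats 82, 84, 86, 91 and 94.

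Of 47 genes, 25 encode receptors, 19 ligands and 3 proteins that are induced by TNF or transforming growth factor beta. A RefSeq promoter was found for 35 of them by symbol. No entry was matched for Ccl4, Ccr4, Ccr7, Il1r2, Il18rap, Lif, Osm, Il2rb, Csf1, Csf2rb, Tnfsf9 and Tnfrsf18. In the 250 bases before the gene's start, 5 of the 35 (14.3%) held an NF-kappaB motif on either strand, against 6.41% of all 27457 promoters of the table. The AP-1 motif TGANTCA was found in 4 (11.4%, against 6.36%), and the STAT motif TTCNNNGAA in 1 (2.86%, against 7.52%). The NF-kappaB matches lay before Csf2ra, Cxcl6, Il27ra, Il6 and Tnfsf14, the AP-1 matches before Il15ra, Osmr, Tnfaip6 and Tnfrsf1b, and the STAT match before Ifnar2. These matches describe letters in a short window, with counts too small for more, and none was tested as a binding site. The 250 upstream bases of 4 genes are shown from the RefSeq table (build GRCr8, a later assembly than the counts were made on), with motif matches in capitals. Il6 and Tnfsf14 are shown for their NF-kappaB motif, which begins 68 and 180 bases before the start, and Osmr for its AP-1 motif, which begins 33 bases before it. Cxcl12 is shown because it is the only gene of the 47 with a lower ipsilateral level after injury, and its window held none of the 3 motifs.
Il6, chr4:5894576-5894825, minus strand: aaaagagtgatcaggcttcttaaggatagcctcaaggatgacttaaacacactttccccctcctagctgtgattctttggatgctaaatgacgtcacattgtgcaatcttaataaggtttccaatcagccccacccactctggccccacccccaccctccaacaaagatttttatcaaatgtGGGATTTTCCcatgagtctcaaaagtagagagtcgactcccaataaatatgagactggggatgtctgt
Tnfsf14, chr9:2160087-2160336, minus strand: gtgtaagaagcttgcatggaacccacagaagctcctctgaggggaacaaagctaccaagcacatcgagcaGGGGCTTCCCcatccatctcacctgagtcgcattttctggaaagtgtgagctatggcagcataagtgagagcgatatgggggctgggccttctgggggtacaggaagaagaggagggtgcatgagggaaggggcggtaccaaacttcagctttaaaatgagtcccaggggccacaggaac
Osmr, chr2:57688562-57688811, minus strand: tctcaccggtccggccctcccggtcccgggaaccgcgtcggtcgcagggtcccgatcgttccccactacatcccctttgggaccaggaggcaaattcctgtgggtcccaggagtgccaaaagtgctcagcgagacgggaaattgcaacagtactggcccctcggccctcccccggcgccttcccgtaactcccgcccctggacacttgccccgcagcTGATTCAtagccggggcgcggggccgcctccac
Cxcl12, chr4:152060531-152060780, plus strand: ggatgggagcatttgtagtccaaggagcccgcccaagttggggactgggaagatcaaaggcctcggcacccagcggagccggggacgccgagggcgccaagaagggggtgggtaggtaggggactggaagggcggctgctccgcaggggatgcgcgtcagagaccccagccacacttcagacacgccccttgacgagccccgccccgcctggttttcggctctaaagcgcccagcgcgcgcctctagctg

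In the ipsilateral hemisphere, 42 of the 47 genes passed the filter on low counts, and 41 of these 42 had a higher level in PBBI than in sham rats. By the quasi-likelihood test of edgeR at an adjusted p of 0.05, 28 were called higher, where 4.09% of all 16104 genes tested were, and none was called lower. Over the 42 the median log2 fold change was 2.13, against -0.02 over all genes tested. It was 2.09 with Tnfsf14, whose sham samples all had 3 counts or fewer, set at its lower bound. All 6 PBBI rats lay above all 5 sham rats in 19 of the 42, where 3.5% of all genes did. Since these genes were named from the same contrast, the shares only describe what the choice of genes brought in. By kind, edgeR called 13 of 18 ligands, 14 of 21 receptors and 1 of 3 induced proteins tested. DESeq2 with a prior, DESeq2 without it and voom each called 40 of the 42, of which 39 were higher. Over all 16104 genes tested they called 1628, 1639 and 5014, where edgeR called 753. Where no method is named below, a call is that of edgeR. The 5 genes under the filter were Ccr4, Cxcr2, Il31ra, Il17f and Tnfrsf18. The lowest ipsilateral log2 fold change among higher genes was that of Ifnar2, at 0.44. The Ensembl identifiers of the genes described most are ENSRNOG00000007002 (Lif), ENSRNOG00000014378 (Il1r2), ENSRNOG00000000187 (Csf2rb), ENSRNOG00000033192 (Osmr), ENSRNOG00000012216 (Tgfbi), ENSRNOG00000015498 (Il17rb), ENSRNOG00000054218 (Il18rap), ENSRNOG00000018706 (Il15ra), ENSRNOG00000030021 (Ccl6), ENSRNOG00000010165 (Tnfaip2) and ENSRNOG00000013589 (Cxcl12).

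The ipsilateral counts depended on single rats. Without PBBI rat 85 the number of these genes called was 35, and without sham rat 82 it was 8. The number over all genes tested moved likewise, from 753 with all rats to 2186 without rat 85 and 359 without rat 82. Of the 47 genes, 13 were called without PBBI rat 81 or sham rat 84, 11 without sham rat 86 or 91, 15 without PBBI rat 88 or sham rat 94, and 16 without PBBI rat 96. These fits called 316 to 465 of all genes. Without PBBI rat 83, 34 were called, 33 of them higher, and without PBBI rat 90, 19. Those 2 fits called 1158 and 459 of all genes. The ipsilateral sample of rat 85 had a mean correlation of 0.835 with the other PBBI samples, where each of the other 5 had at least 0.933. The genes called in each of the 11 fits that left out 1 rat were Il1r2, Il18rap, Osmr, Il17rb, Csf2rb, Tnfrsf1a and Tgfbi. Tnfsf14 was called in each of the 5 such fits in which it passed the filter.

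**Figure D1:**
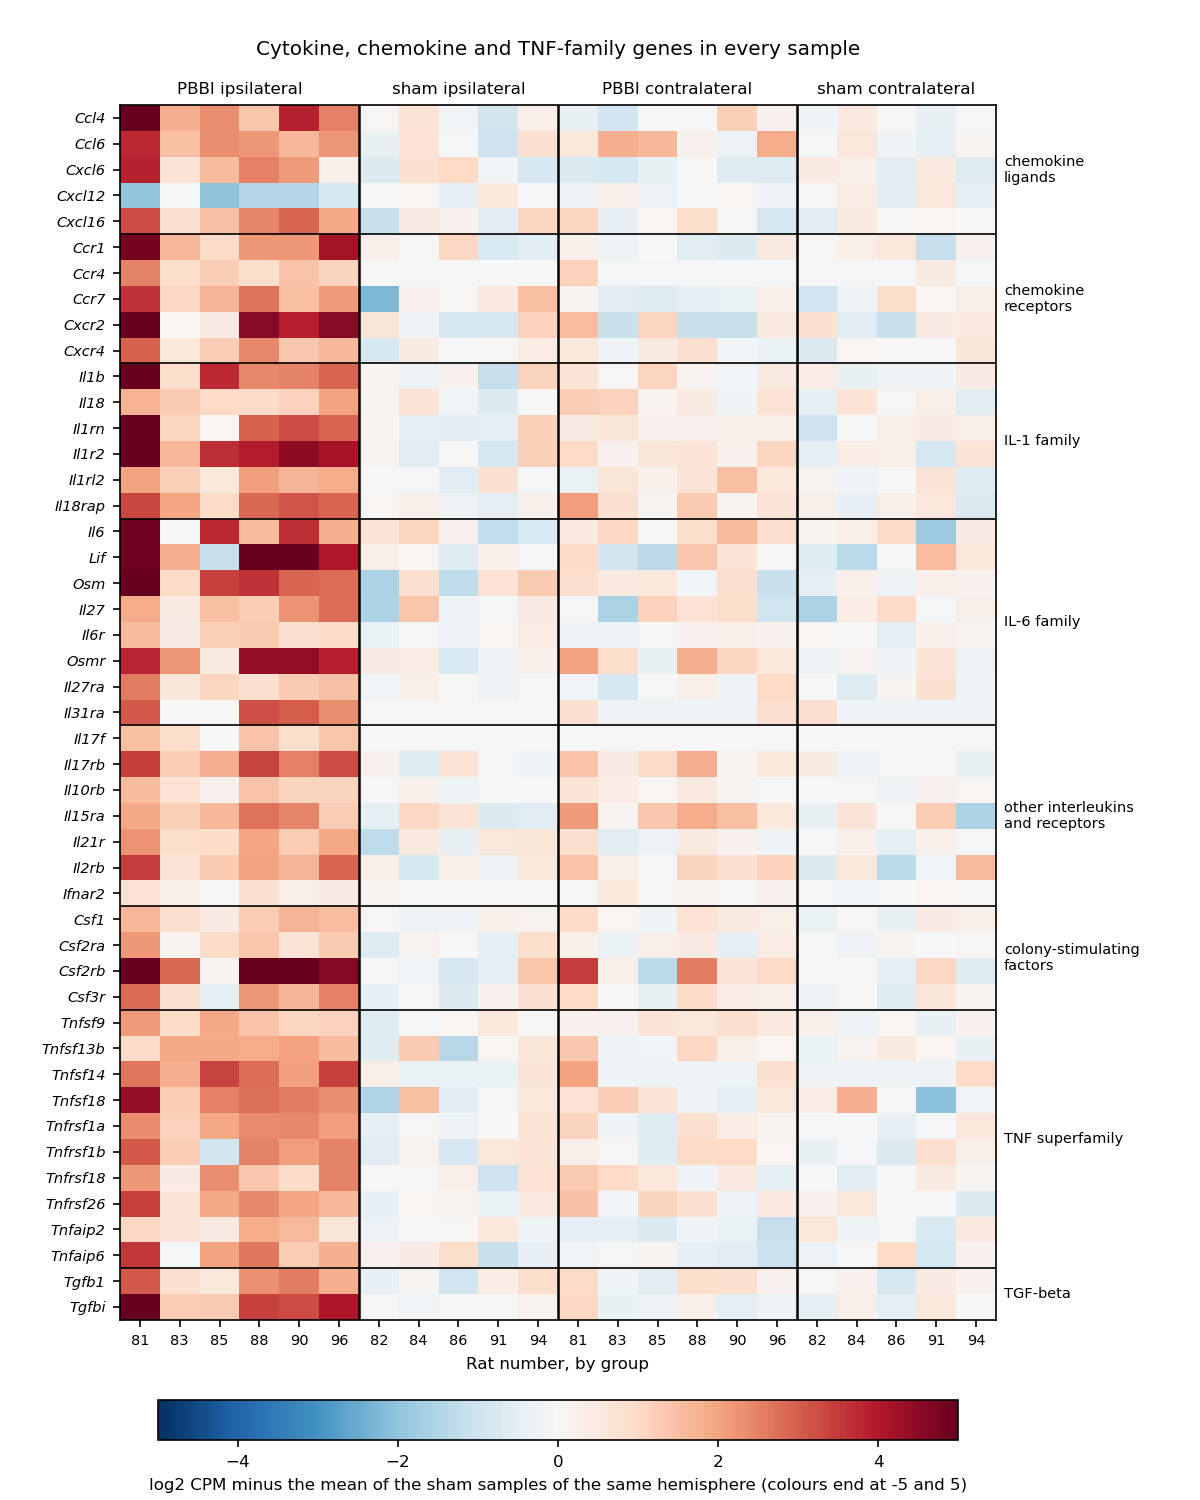
Log2 CPM of the 47 genes (rows, grouped by family) in each of the 22 samples (columns, rat number within group), minus the mean of the sham samples of the same hemisphere. Red is higher and blue is lower, and the colours end at -5 and 5. The ipsilateral PBBI columns are red in nearly every row, palest in rats 83 and 85, and Cxcl12 is the row that is blue there.

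Chemokine ligands were led by Ccl4, which attracts monocytes and lymphocytes. Its ipsilateral level in PBBI rats was 0.518 CPM at the lowest, 1.11 at the median and 7.85 at the highest. In sham rats it was 0.184, 0.304, 0.160, 0.0793 and 0.230 CPM. Every PBBI rat lay above every sham rat, and the log2 fold change was 3.62 (standard error 0.78). Contralaterally Ccl4 had 0.202 CPM ± 0.128 in PBBI and 0.181 ± 0.0505 in sham rats, and it did not pass the filter there.

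Cxcl12, a chemokine of the vessel wall and meninges that retains cells bearing Cxcr4, went the other way. It had 8.65 CPM at the lowest, 12.7 at the median and 33.8 at the highest in ipsilateral PBBI samples. The sham rats had 34.6, 37.6, 24.6, 50.1 and 32.6 CPM. Rats 81, 85, 88, 90 and 96 lay below every sham rat, and rat 83, with 33.8 CPM, lay among them. The log2 fold change was -1.16 (standard error 0.35), and edgeR did not call it. The ipsilateral level was below the contralateral level in all 6 PBBI rats. Without rat 83 the log2 fold change was -1.52 and edgeR called Cxcl12 lower, in 1 of the 11 fits that left out 1 rat. With all rats, DESeq2 and voom called it lower. Of 4 listed markers of mural cells, 2 could be named (Rgs5 and Vtn). Their summed level was 7.83 to 28.1 CPM in ipsilateral PBBI and 23.4 to 40.5 CPM in sham samples. Rats 81, 85, 88, 90 and 96 lay below every sham rat, at 7.83 to 22.7 CPM, and rat 83, with 28.1 CPM, lay among them. The summed level of endothelial markers (Icam1, Slco1c1 and Vwf, 3 of 5 named) was 54.6 to 117 against 72.8 to 129 CPM, and the groups overlapped. It is given only as a sum. The part of these cells in the Cxcl12 level was not tested.

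The other chemokine ligands were higher ipsilaterally. Ccl6, a chemokine of macrophages and other myeloid cells, had 20.3 CPM ± 14.2 in PBBI and 4.05 ± 2.04 in sham rats, a log2 fold change of 2.33. Cxcl16, which exists as a membrane-bound and a shed form and binds Cxcr6, had 29.1 CPM ± 17.1 against 6.44 ± 3.63 (log2 fold change 2.17). Cxcl6, a neutrophil attractant, had 0.876 CPM ± 0.884 against 0.171 ± 0.116, with 4 of 6 PBBI rats above every sham rat, and edgeR did not call it. Of 5 ligands tested, 3 were called.

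Among chemokine receptors, Ccr1, found on monocytes and neutrophils, had the highest log2 fold change of those tested (3.26, standard error 0.76). Its ipsilateral level in PBBI rats ran from 0.904 CPM over a median of 2.16 to 13.4, and the sham rats had 0.553, 0.456, 0.962, 0.254 and 0.296 CPM. Rats 81 and 96 stood above the rest, at 13.4 and 8.65 CPM, and rat 85 fell within the sham range. Cxcr4, the receptor of Cxcl12, had the lowest log2 fold change of the receptors (1.86, standard error 0.44). Its levels in PBBI rats were 3.44 CPM at the lowest, 6.72 at the median and 18.1 at the highest, and the sham rats had 1.33, 3.23, 2.17, 2.41 and 3.06 CPM, so the groups did not overlap. The ligand Cxcl12 and its receptor Cxcr4 therefore lay on opposite sides of the sham range in 5 of the 6 PBBI rats.

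Ccr7, which guides dendritic cells and lymphocytes to lymph nodes, had 0.812 CPM ± 0.610 against 0.181 ± 0.156 and was not called. Cxcr2, the neutrophil receptor for Cxcl1-type chemokines, did not pass the filter. It had 239, 94, 59 and 99 counts in PBBI rats 81, 88, 90 and 96, and 2 counts each in rats 83 and 85, against 0 to 6 counts in sham rats. Ccr4, a receptor of T helper cells, had 2 to 10 counts in PBBI rats and 0 in every ipsilateral sham sample, too few for a fold change.

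The 6 genes of the IL-1 family were all called higher ipsilaterally. Il1r2, the decoy receptor that binds IL-1 without passing on a signal, had the highest log2 fold change of the family (4.59, standard error 0.80). Its level was 0.896 CPM at the lowest, 4.78 at the median and 23.1 at the highest in PBBI rats, and 0.295, 0.171, 0.267, 0.127 and 0.642 CPM in sham rats, with no overlap. Il1b, which encodes the secreted cytokine IL-1 beta, was higher alongside its natural inhibitor Il1rn, the IL-1 receptor antagonist. Il1b had 8.95 CPM ± 9.73 against 0.844 ± 0.487, a log2 fold change of 3.40, and Il1rn had 20.7 ± 26.1 against 2.05 ± 1.25, a log2 fold change of 3.34. Both were highest in rat 81, at 27.9 CPM for Il1b and 72.4 CPM for Il1rn. Rat 85 separated the pair, with 10.3 CPM of Il1b, the second highest of the 6, and 1.94 CPM of Il1rn, within the sham range.

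Il18, a cytokine that is stored as a precursor and cleaved by caspase-1, had the lowest log2 fold change of the family (1.36, standard error 0.30). It ran from 9.79 CPM over a median of 12.0 to 20.8 CPM in PBBI rats, and the sham rats had 5.51, 8.25, 4.65, 3.15 and 5.03 CPM, so every PBBI rat lay above every sham rat. Il18rap, the accessory chain of the IL-18 receptor, had 0.904 CPM at the lowest, 3.50 at the median and 4.84 at the highest, against 0.479, 0.570, 0.374, 0.317 and 0.543 CPM in sham rats. The groups did not overlap, and the log2 fold change was 2.77 (standard error 0.44). Il1rl2, the receptor of IL-36, had 2.61 CPM ± 0.913 against 0.845 ± 0.317, a log2 fold change of 1.62.

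In the IL-6 family, 4 of 7 genes tested were called higher. Lif, leukaemia inhibitory factor, had the highest log2 fold change of the 42 genes tested, 5.13 (standard error 1.08). Its ipsilateral level in PBBI rats was 0.0452 CPM at the lowest, 3.90 at the median and 12.1 at the highest, and the sham rats had 0.184, 0.152, 0.0802, 0.174 and 0.132 CPM. The lowest PBBI value, 2 counts in rat 85, lay below every sham rat, whereas rats 88 and 90 had 743 and 843 counts. Osm, oncostatin M, a product of neutrophils and macrophages, had 3.00 CPM ± 3.43 against 0.249 ± 0.198 (log2 fold change 3.56).

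Osmr, the receptor chain for oncostatin M carried by astrocytes, endothelial cells and other stromal cells, ran from 0.836 CPM over a median of 9.22 to 13.8 CPM. In the sham group it was 0.811, 0.798, 0.347, 0.507 and 0.724 CPM. All PBBI rats lay above all sham rats, rat 85 by the narrowest margin, and the log2 fold change was 3.68 (standard error 0.64). Osm and Osmr differed in where they were lowest: Osm was lowest in rat 83 (0.382 CPM) and had 2.21 CPM in rat 85, while Osmr had 2.91 CPM in rat 83 and 0.836 in rat 85.

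Il6 itself had 0.250 CPM at the lowest, 2.41 at the median and 8.76 at the highest in PBBI rats. In sham rats it was 0.461, 0.608, 0.321, 0.0951 and 0.148 CPM. Rat 83, at 0.250 CPM, lay inside the sham range, and the log2 fold change of 3.26 (standard error 0.86) was not called. Its receptor Il6r had a smaller fold change at a higher level, with 20.4 CPM at the lowest, 32.5 at the median and 46.0 at the highest, against 12.1, 15.6, 13.7, 16.4 and 19.9 CPM in sham rats. The groups did not overlap, and the log2 fold change of 1.08 (standard error 0.24) was called. Il27, a dimer subunit made by antigen-presenting cells, and Il27ra, its receptor chain, had log2 fold changes of 1.87 and 1.64 and were not called. Il31ra, a receptor that pairs with Osmr, had 10 to 20 counts in rats 81, 88, 90 and 96 and 0 in rats 83 and 85 and in every ipsilateral sham sample. Its mean level was at least 1.91-fold higher in PBBI than the level of 3 counts per library in sham rats.

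Of the other interleukin and interferon receptors, 4 of 6 tested were called higher. Il17rb, a receptor for IL-17B and IL-25, had 1.01 CPM at the lowest, 3.31 at the median and 4.75 at the highest in ipsilateral PBBI samples. The sham rats had 0.479, 0.247, 0.668, 0.380 and 0.345 CPM, and the groups did not overlap (log2 fold change 2.85, standard error 0.48). Ifnar2, a chain of the type I interferon receptor, differed least, with 11.8 CPM at the lowest, 15.5 at the median and 20.3 at the highest, against 13.1, 12.5, 11.1, 11.7 and 11.5 CPM. Rat 85 was inside the sham range, and Ifnar2 was not called.

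Il15ra, which presents IL-15 to neighbouring cells, ran from 0.676 CPM over a median of 1.03 to 2.00 CPM in PBBI rats and was 0.184, 0.608, 0.454, 0.159 and 0.181 CPM in sham rats. The groups did not overlap, and the log2 fold change was 1.90 (standard error 0.49). Il2rb, the beta chain shared by the receptors of IL-2 and IL-15, had a log2 fold change of 2.39, Il21r of 1.51 and Il10rb, a chain shared by receptors of the IL-10 family, of 1.08. Il17f, the only ligand of this group and a product of T helper cells, had 0 to 4 counts in ipsilateral PBBI samples and 0 in each of the other 16 samples, too few for a comparison.

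All 4 genes of the colony-stimulating factor system were higher ipsilaterally, and Csf1 and Csf2rb were called. Csf2rb, the beta chain shared by receptors for GM-CSF, IL-3 and IL-5, had 1.11 CPM at the lowest, 29.7 at the median and 64.4 at the highest in PBBI rats. In sham rats it had 1.01, 0.912, 0.534, 0.729 and 2.67 CPM. Rat 85 was within the sham range, and the other 5 PBBI rats lay at 7.52 CPM or above (log2 fold change 4.59, standard error 0.87). Its partner Csf2ra, the GM-CSF binding chain, had the lowest log2 fold change of the group (1.15, standard error 0.40), from 3.50 CPM over a median of 6.86 to 14.2, against 1.99, 3.54, 3.13, 2.30 and 5.82 CPM. Both chains were thus higher, but by unequal amounts, and Csf2ra was not called. Csf1, the growth factor of microglia and macrophages, had 15.5 CPM ± 4.92 against 6.29 ± 1.00 (log2 fold change 1.30). Csf3r, the G-CSF receptor of neutrophils, had 13.1 ± 8.21 against 3.58 ± 1.47 (log2 fold change 1.87) and was not called.

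In the TNF superfamily, 5 of 9 genes tested were called higher. Tnfrsf1a, the widely expressed TNF receptor that carries a death domain, had 17.9 CPM at the lowest, 37.9 at the median and 42.9 at the highest in ipsilateral PBBI samples. The sham rats had 5.86, 8.31, 6.74, 8.07 and 12.9 CPM, and the groups did not overlap (log2 fold change 2.06, standard error 0.29). Tnfrsf1b, the second TNF receptor, found mainly on myeloid cells and lymphocytes, ran from 0.565 CPM over a median of 5.47 to 9.27 and had 0.737, 1.24, 0.588, 1.60 and 1.71 CPM in sham rats. Its lowest PBBI value, in rat 85, lay below every sham rat, and with nearly the same log2 fold change of 2.06 (standard error 0.58) it was not called. Tnfrsf26, a member of the TNF receptor family found in rodents, had 3.55 CPM ± 2.38 against 0.747 ± 0.199 (log2 fold change 2.25).

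Tnfsf14, also named LIGHT, a ligand of lymphocytes and myeloid cells, had 8 to 31 counts in the 6 PBBI rats. The counts in sham rats were 1, 0, 0, 0 and 2 counts. The level in PBBI was at least 3.28-fold higher than the level of 3 counts per library in sham rats, and the fitted log2 fold change of 4.34 depends on the prior count of the fit. Tnfsf9, the ligand of 4-1BB, had 3.15 CPM ± 1.12 against 1.13 ± 0.323 (log2 fold change 1.48), with every PBBI rat above every sham rat. Tnfsf13b, the B cell survival factor BAFF, had a log2 fold change of 1.51 and Tnfsf18, the ligand of the receptor encoded by Tnfrsf18, of 2.79. Tnfrsf18 itself, a receptor of activated T cells, had 4 to 27 counts in PBBI rats and 0 to 5 in sham rats and did not pass the filter.

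Among proteins induced by TNF or transforming growth factor beta, Tnfaip2 had the lowest log2 fold change of the TNF group (1.11, standard error 0.33). It ran from 4.65 CPM over a median of 6.34 to 12.9 CPM in PBBI rats, and the sham rats had 2.88, 3.42, 3.66, 5.07 and 2.99 CPM. Rats 88 and 90 stood above the rest at 12.9 and 11.1 CPM, rat 85 was within the sham range, and the gene was not called. Tnfaip6, a hyaluronan-binding protein of inflamed tissue, had 31.2 CPM ± 24.6 against 7.22 ± 3.42 (log2 fold change 2.11) and was not called. Tgfbi, an extracellular matrix protein, had 8.85 CPM at the lowest, 37.6 at the median and 122 at the highest. In sham rats it was 3.69, 3.35, 3.58, 3.63 and 4.08 CPM, and the groups did not overlap (log2 fold change 3.65, standard error 0.64). Tgfb1, the transforming growth factor itself, ran from 5.85 CPM over a median of 16.8 to 33.1 and had 2.98, 4.31, 2.03, 5.13 and 7.27 CPM in sham rats. Rats 83 and 85 were within the sham range, and the log2 fold change of 1.98 (standard error 0.49) was called.

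Divided by gene length, the highest ipsilateral levels in PBBI rats were those of Tnfaip6 (22.9 CPM per kb ± 18.0), Tgfbi (17.2 ± 15.8), Cxcl16 (17.0 ± 10.0), Tnfrsf1a (16.3 ± 4.53) and Ccl6 (14.8 ± 10.3). These differ from each other by less than their spread between rats. In ipsilateral samples of sham rats the order began with Ifnar2 (6.72 CPM per kb ± 0.456), Cxcl12 (6.62 ± 1.72), Tnfaip6 (5.30 ± 2.51), Il18 (5.28 ± 1.85) and Tnfrsf1a (3.92 ± 1.28). Ifnar2 and Cxcl12 differed there by less than the spread between rats. In contralateral sham samples Cxcl12 came first (7.14 CPM per kb ± 2.28) and Ifnar2 second (6.33 ± 0.373), again within that spread. In ipsilateral PBBI samples Cxcl12 had 2.97 CPM per kb ± 1.76.

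The 6 injured rats differed from each other along the whole set of genes. Rats 81, 88, 90 and 96 each lay above every sham rat in 45 of the 47 genes ipsilaterally, rat 85 in 32 and rat 83 in 30. How many of all genes did so in each rat was not counted. Rat 81 had the highest level of the 6 in 31 genes, and rat 83 the lowest in 26. Of the PBBI rats, only rat 81 has sample titles that carry PFC. The median over the 47 genes of the log2 level minus the sham mean was 3.06 in rat 81, 2.29 in rat 88, 2.08 in rat 96 and 2.06 in rat 90, and it was 1.22 in rat 85 and 0.90 in rat 83. The same median over all genes lay between -0.10 and 0.02 in the 6 rats.

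Rats 83 and 85 were low in different genes. In rat 85, 12 genes lay within the sham range and 3 below it, Cxcl12, Lif and Tnfrsf1b. Of the 12, Il31ra and Il17f had 0 counts in rat 85 and in every ipsilateral sham sample, and Cxcr2 had 2 counts in rat 85. The same was not counted over all genes. Rat 85 had the second highest levels of Il1b (10.3 CPM) and Il6 (4.07 CPM), where rat 83 had the lowest of the 6 (1.40 and 0.250 CPM). For Csf2rb the order was turned, with 7.52 CPM in rat 83 and 1.11 in rat 85. Rat 83 had none of the 47 genes below the sham range. The ipsilateral library of rat 85 had the lowest TMM factor of all 22 (0.706), where the other ipsilateral PBBI libraries had 1.07 to 1.21. The part of this factor in the levels of rat 85 was not tested.

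**Figure D2:**
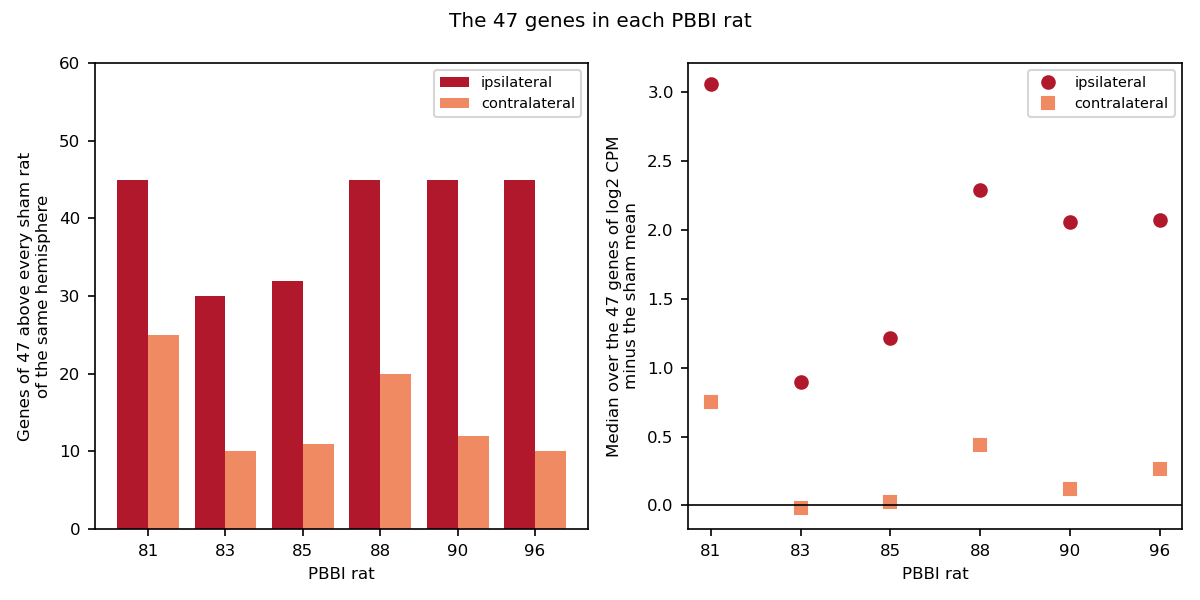
Left, number of the 47 genes whose level in a PBBI rat lay above every sham rat of the same hemisphere (bars, ipsilateral red, contralateral orange). Right, the median over the 47 genes of log2 CPM minus the mean of the sham rats. Rats 83 and 85 have the 2 lowest ipsilateral values in both panels (30 and 32 genes), and rat 81 has the highest median. The counts on the left were not made over all genes.

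Some cell type markers also differed between ipsilateral PBBI and sham samples. In bulk tissue, fewer or more cells of a type and less or more RNA per cell cannot be told apart. Of the listed markers, 3 of 7 could be named for astrocytes, 8 of 13 for microglia and macrophages, 6 of 8 for neutrophils and 3 of 6 for T cells, and none of these was at 0 in every sample. No neuron or oligodendrocyte marker of the lists could be named, so the cortex label was not checked against them. The naming key favours markers that changed, so their levels are no independent evidence.

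The summed neutrophil markers were 28.5 to 234 CPM in ipsilateral PBBI and 6.55 to 56.7 CPM in ipsilateral sham samples. Those of microglia and macrophages were 303 to 1178 against 145 to 366 CPM and those of T cells 2.29 to 8.83 against 0.222 to 1.61. The 3 astrocyte markers did not move together. Gfap, a filament protein of reactive astrocytes, had 1815 to 6830 CPM in ipsilateral PBBI and 341 to 891 CPM in sham samples and made up nearly all of the astrocyte sum, whereas Aldh1l1 had 5.08 to 8.83 against 10.4 to 19.1 CPM and Gjb6 4.13 to 45.1 against 34.5 to 61.0 CPM. The sum of endothelial markers (Icam1, Slco1c1 and Vwf, 3 of 5 named) was 54.6 to 117 against 72.8 to 129 CPM. Rat 83 had the lowest sums for neutrophils (28.5 CPM), microglia and macrophages (303 CPM) and T cells (2.29 CPM). Rat 85 had the highest neutrophil sum (234 CPM) and the lowest Gfap level (1815 CPM), beside its low Osmr, Csf2rb and Lif. The part of these cell types in the cytokine levels was not tested.

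Contralateral cortex came from samples that the naming of the genes did not use, though of the same rats. There 38 of the 47 genes passed the filter, and Ccl4, Cxcl6, Il27 and Tnfsf14 were under it beside the 5 named above. No gene was called by edgeR at an adjusted p of 0.05, among these genes or among all 15907 tested (0%), and DESeq2 and voom called none of the 38 either. At an unadjusted p under 0.05, 7 of the 38 differed, against 2.3% of all genes tested, and 6 of them were higher, against 1.28%. By direction alone, 33 of the 38 had a log2 fold change above 0, where 48.8% of all genes had. The 38 were named for their ipsilateral levels in these same rats, whose paired samples deviated together (correlations of 0.246 to 0.758), so the count is not independent of how the genes were chosen. The median log2 fold change was 0.36, against -0.01 over all genes tested. In none of the 38 did all PBBI rats lie above all sham rats, which 0.0943% of all genes did.

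The 6 higher genes were Ccl6, Il17rb, Osmr, Csf2rb, Il18rap and Il15ra, of which all but Ccl6 encode receptors, and Tnfaip2 was lower. By kind, the 7 were 5 of 21 receptors, 1 of 14 ligands and 1 of 3 induced proteins tested, and the difference between kinds was not tested. All 7 had an adjusted p of 1 from edgeR. Each of the 47 genes was also given an exact permutation test, two-sided, which enumerated every way to divide the 11 rats and cannot give a p below 0.00216. None of these p-values is adjusted. The size of the 7 differences depended on the fit. DESeq2 with a prior, which draws log2 fold changes toward 0, gave 0.53 for Ccl6, 0.50 for Osmr, 0.49 for Il17rb, 0.41 for Csf2rb, 0.39 for Il18rap, 0.36 for Il15ra and -0.38 for Tnfaip2, and voom gave Ccl6 0.56 with an unadjusted p of 0.173. With 1 rat left out, the unadjusted edgeR p stayed under 0.05 in all 11 fits for Ccl6, Osmr and Il17rb. It did so in 8 of 11 for Csf2rb, 7 for Il18rap, and only 5 for Il15ra and for Tnfaip2.

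Il17rb had 0.478 CPM at the lowest, 0.737 at the median and 1.58 at the highest in contralateral PBBI samples, and the sham rats had 0.593, 0.359, 0.437, 0.437 and 0.322 CPM. Rats 81, 85, 88 and 96 lay above every sham rat, and the other two lay within the sham range. The log2 fold change was 1.04 (standard error 0.36), with an unadjusted p of 0.0128 from edgeR and 0.0152 from the exact permutation test. It was between 0.78 and 1.17 when any 1 rat was left out.

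Osmr ran from 0.553 CPM over a median of 1.48 to 3.08 CPM contralaterally, against 0.612, 0.801, 0.620, 1.17 and 0.598 CPM in sham rats. Rats 81, 83, 88 and 90 lay above every sham rat, and rat 85, again the lowest of the 6, lay below every sham rat. The log2 fold change was 1.17 (standard error 0.41), with an unadjusted p of 0.0135 from edgeR and 0.0541 from the exact permutation test.

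Ccl6 had 2.72 CPM at the lowest, 7.82 at the median and 12.1 at the highest. The sham rats had 3.08, 5.02, 2.99, 2.46 and 3.63 CPM. It was highest in rats 83, 85 and 96, at 11.7, 10.7 and 12.1 CPM, which is not the order of the receptors above, and rats 81, 88 and 90 lay within the sham range. The log2 fold change was 1.15 (standard error 0.39), with an unadjusted p of 0.0110 from edgeR and 0.0779 from the exact permutation test. In rat 83 the contralateral level of 11.7 CPM was above the ipsilateral level of 10.4 CPM, the only PBBI rat in which that was so for Ccl6.

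Csf2rb had the largest contralateral log2 fold change, 1.81 (standard error 0.72), and it rested on few rats. Rats 81 and 88 had 12.6 and 6.42 CPM, and the other 4 had 0.398 to 2.10 CPM, against 1.09, 1.11, 0.765, 2.22 and 0.690 CPM in sham rats. The unadjusted p was 0.0242 from edgeR and 0.221 from the exact permutation test, and the log2 fold change was 1.04 without rat 81. Il18rap ran from 0.444 CPM over a median of 0.693 to 1.82 CPM, against 0.500, 0.294, 0.510, 0.616 and 0.230 CPM (log2 fold change 1.00, standard error 0.43, unadjusted p of 0.0353 from edgeR and 0.0671 from the exact permutation test). Rat 81 was again the highest, and without it the log2 fold change was 0.62.

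Il15ra had 0.223 CPM at the lowest, 0.593 at the median and 0.978 at the highest, and the sham rats had 0.148, 0.327, 0.201, 0.518 and 0.0460 CPM. Rats 81, 85, 88 and 90 lay above every sham rat. The log2 fold change was 1.22 (standard error 0.53), with an unadjusted p of 0.0378 from edgeR and 0.0433 from the exact permutation test. Tnfaip2 had a contralateral level of 2.16 CPM at the lowest, 3.44 at the median and 4.18 at the highest, against 7.12, 4.12, 4.45, 2.80 and 6.80 CPM. The groups overlapped, and the log2 fold change was -0.60 (standard error 0.27, unadjusted p of 0.0437 from edgeR and 0.0823 from the exact permutation test). Tnfsf9 was the one further gene with an exact permutation p under 0.05 (0.0173), with 1.48 CPM ± 0.258 in PBBI and 1.04 ± 0.193 in sham rats and an unadjusted p of 0.0536 from edgeR.

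**Figure D3:**
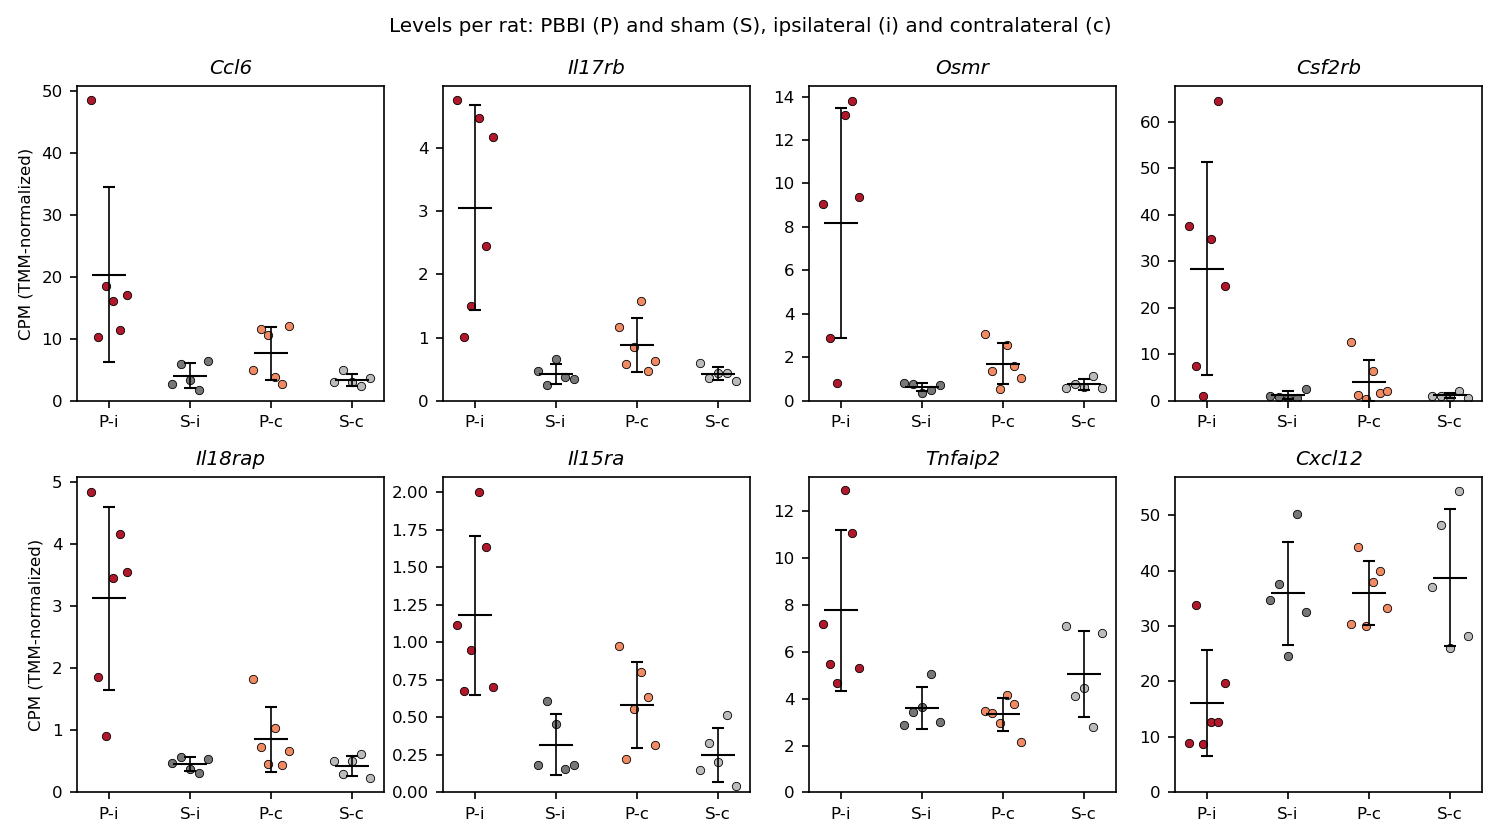
CPM per rat (points) with mean and SD (bars, cut at 0) in ipsilateral (i) and contralateral (c) samples of PBBI (P, 6 rats) and sham (S, 5 rats), for the 7 genes with an unadjusted p under 0.05 contralaterally and for Cxcl12. The contralateral groups overlap in every panel, and ipsilateral PBBI levels of Cxcl12 lie below the sham mean in all 6 rats.

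Genes with the largest ipsilateral differences were not always those that differed contralaterally. Lif had 0.192 CPM ± 0.141 against 0.179 ± 0.167 contralaterally, Tgfbi 4.62 ± 2.23 against 4.45 ± 1.38, Ccr1 0.489 ± 0.158 against 0.550 ± 0.207, and Osm 0.356 ± 0.156 against 0.275 ± 0.0680, each within the spread between rats. Il1b had 0.825 CPM ± 0.278 against 0.617 ± 0.162 and Il6 0.401 ± 0.162 against 0.239 ± 0.133, with unadjusted p-values of 0.198 and 0.148 from edgeR. Ccr7 and Tnfaip6 had contralateral log2 fold changes of -0.41 and -0.44, with unadjusted p-values of 0.359 and 0.191 from edgeR. Contralateral Gfap was 502 to 4134 CPM in PBBI and 457 to 1153 CPM in sham rats, highest in rats 81 (4134 CPM) and 88 (3086 CPM). The other astrocyte markers overlapped between groups, with 8.10 to 16.9 against 11.9 to 21.4 CPM for Aldh1l1 and 37.5 to 67.1 against 33.0 to 50.9 CPM for Gjb6. Rats 81 and 88 also had the most genes above every contralateral sham rat, 25 and 20 of 47, where the other 4 had 10 to 12. The same was not counted over all genes, so these counts have no background share. The median over the 47 genes of the log2 level minus the sham mean was 0.75 in rat 81, 0.44 in rat 88 and -0.02 to 0.27 in the other 4. Over all genes this median was -0.01 to 0.02. Contralateral neutrophil sums were 8.97 to 58.7 against 6.41 to 51.7 CPM. The part of astrocytes or neutrophils in these levels was not tested.

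**Figure D4:**
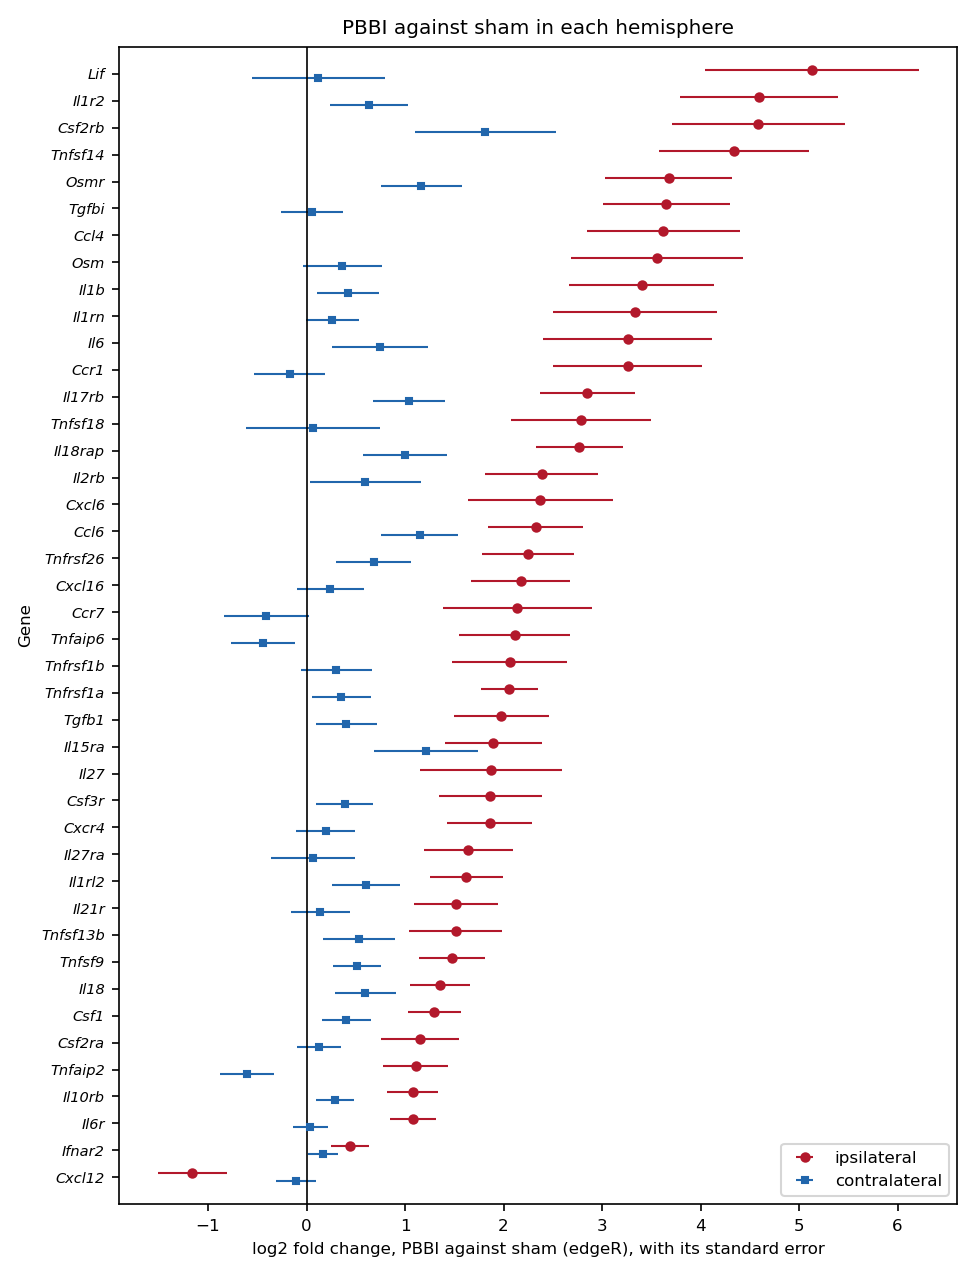
Log2 fold change of PBBI against sham by edgeR (x axis) for the 42 genes tested ipsilaterally, ordered by the ipsilateral value, with ipsilateral (circles) and contralateral (squares) estimates and their standard errors. Ipsilateral values run from -1.16 (Cxcl12) to 5.13 (Lif), and contralateral values from -0.60 (Tnfaip2) to 1.81 (Csf2rb).

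Sham rats showed the baseline between hemispheres, though their ipsilateral samples took part in the naming of the genes. Of 36 genes tested, none was called by edgeR at an adjusted p of 0.05, as for all 15747 genes tested (0%), and none had an unadjusted p under 0.05 (0.298% of all genes). DESeq2 and voom called none. With the rat as a block, which pairs both samples of an animal, 2 genes had an unadjusted p under 0.05 (1.51% of all genes). They were Tnfrsf1a and Tnfrsf1b, with unadjusted p-values of 0.0413 and 0.0422 from edgeR. Both TNF receptors were lower ipsilaterally in all 5 sham rats, Tnfrsf1a at 8.38 CPM ± 2.74 against 10.5 ± 2.70 and Tnfrsf1b at 1.17 ± 0.502 against 1.66 ± 0.732. In sham rat 82 the titles of the paired samples carry unlike labels, CI and PFC.

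Within PBBI rats, 23 of 41 genes tested were called higher in the ipsilateral than in the contralateral hemisphere, where 2.97% of all genes were. With the rat as a block 30 were called higher (6.68% of all genes) and Cxcl12 lower (3.62%). Since the ipsilateral samples named the genes, these are again descriptions. The unblocked count was 0 without rat 88 or rat 96, 1 without rat 90, 7 without rat 81 and 31 without rat 85. The count over all genes was 1 without rat 88, 6 without rat 96, 42 without rat 90, 246 without rat 81 and 1149 without rat 85. With all rats it was 568. Within single animals, Lif, Il1r2, Ccl4, Cxcl16, Il1b and Tgfbi were among the genes that were higher ipsilaterally in all 6 PBBI rats. Among the genes tested, Ccl6, Il1rn, Il6, Osm, Csf3r, Tnfsf13b and Tnfrsf1b were higher in 5 of 6 and Ifnar2 in 4 of 6.

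By the interaction over all 22 samples, the injury effect was called different between hemispheres in 2 of 42 genes, against 0.307% of all genes. They were Il1r2, with a difference of log2 fold changes of 3.95 (standard error 0.85), and Tgfbi, with 3.60 (standard error 0.70). These 42 are not the same 42 as those tested ipsilaterally. Over all 22 samples Cxcr2 passed the filter and Tnfsf14 did not. With the rat as a block 18 genes were called with a higher ipsilateral effect (2.95% of all genes) and Cxcl12 with a lower one (1.32%). The 18 were Ccl4, Cxcl16, Ccr1, Cxcr4, Il1b, Il1r2, Lif, Il6r, Osmr, Il17rb, Il21r, Csf1, Csf2rb, Tnfrsf1a, Tnfaip2, Tnfaip6, Tgfb1 and Tgfbi. For Cxcl12 the blocked difference was -1.24 (standard error 0.27), and for Tnfaip2, which was called in neither hemisphere, it was 1.59 (standard error 0.38). Genes for which neither fit called a difference included Ccl6 (1.17, standard error 0.62, unblocked) and Il15ra (0.69, standard error 0.72), neither of which was called contralaterally. The unblocked count was 11 without rat 83, 4 without rat 85 and 0 in 8 of the 11 fits that left out 1 rat. The count over all genes was 255 without rat 83, 58 without rat 85 and 0 to 2 in those 8 fits. With all rats it was 54.

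Other genes of these pathways were taken from a list of 93, of which 31 could be named, mostly from genes called ipsilaterally. All 31 were tested there, 17 were called higher (against 4.09% of all genes) and none lower, with a median log2 fold change of 1.48 (against -0.02 over all genes). As for the 47 genes, the naming key chose them on this contrast, so the counts are a description. They included the feedback inhibitor Socs3 (5.32), the NF-kappaB regulator Bcl3 (3.75), the IL-6 family ligand Clcf1 (3.58), the necroptosis kinase Ripk3 (2.46), the prostaglandin synthase Ptgs2 (2.26) and Stat3 (2.09), which relays signals of the IL-6 family. The chemokine Cx3cl1, which neurons use to signal to microglia, was lower (-0.78) and not called. Contralaterally none of 30 tested was called, 22 had a log2 fold change above 0 (48.8% of all genes), with a median of 0.19, and 3 had an unadjusted p under 0.05 (2.3% of all genes). These were Cx3cl1 (log2 fold change -0.52), Fas (0.77) and Casp4 (0.54), and the adjusted p from edgeR was 1 for each.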

How the data were processed

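The authors made stranded, ribosome-depleted paired-end libraries and, by the submitters' processing notes, aligned reads with STAR 2.4.2a to Rnor_6.0 and counted them on genes with featureCounts 1.4.3-p1. The authors deposited raw counts, 1 column per sample, without normalization. How strand and multiply aligned reads were counted is not given in the sources used here. Even numbers made up 60.8% to 69.6% of the counts of 1 to 19 in a sample, and why was not tested. Counts are not molecules, and the floor of 3 counts covers counting error only. The authors' table of called genes was used only to pair identifiers with symbols. Its columns hold fold changes and p-values, which were not used.

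The 11 samples of each hemisphere were fitted separately, as in the study, with edgeR 4.0.16 (R 4.3.3, quasi-likelihood test, TMM, filterByExpr, Benjamini-Hochberg adjustment over all genes tested, threshold 0.05). Hemispheres were compared within PBBI, within sham and by the interaction over 22 samples. Standard errors come from the fold change and the root of F, and log2 CPM from a prior count of 2. Also tried were limma 3.58.1 voom with sample weights, DESeq2 1.42.0 (prior on or off), RLE size factors, no filter, the rat as a block, and leaving out each rat. Both hemispheres of a rat share its number, and their deviations from group means correlated at 0.246 to 0.758 in 11 rats. No samples held identical counts. The tests were tried on simulated data.

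All members are named. Values per sample are given for the highest and lowest ipsilateral log2 fold change of each family, any lower member, any at an unadjusted p under 0.05 contralaterally or between sham hemispheres, and Il6. The members and lists were chosen with earlier results of these data known. Promoters are RefSeq's (GRCr8), matched by symbol, and coordinates of the counted genes are not used here. Surgeries ran in weekly groups, which are not used here.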

Additional observations from a re-analysis of the deposited data

Results flagged for a closer look

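Among 128 groups (32 members with a mean of at least 1 CPM over all 22 samples, each looked at in the 4 groups of samples), 4 held a sample that lay far from the others by Dixon's criterion, or 3.12%, where chance gives about 1 in 20. Ccl6 in the ipsilateral PBBI sample of rat 81 had 48.5 CPM, against 10.4 to 18.5 CPM in the other 5. In contralateral sham samples, Ccr1 had 0.211 CPM in rat 91 (0.537 to 0.766 in the others), Il1rn 0.834 CPM in rat 82 (1.76 to 2.28) and Il6 0.0324 CPM in rat 91 (0.222 to 0.401). The injury effect differed between hemispheres by the interaction test for Il1r2, by 3.95 on the log2 scale, and for Tgfbi, by 3.60, and both genes were named from the ipsilateral contrast.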

How the results depend on the processing

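The contralateral result of no call among the 47 genes held in every fit, the replicate left out included. The number at an unadjusted p under 0.05 was 12 under voom, where it was 2119 of 15907 over all genes tested (main 366). It was 5 to 8 with 1 rat left out (main 7), where it was 274 to 1043 over all genes, and 29 to 34 genes were higher (main 33). The ipsilateral count was 8 to 35 with 1 rat left out, that of ipsilateral against contralateral PBBI samples 0 to 31, and that of the interaction 0 to 11. The same fits called 316 to 2186, 1 to 1149 and 0 to 255 of all genes. Voom called 40 genes between PBBI hemispheres and 25 in the interaction, and DESeq2 called 14 in the interaction. Of all genes tested, voom called 3695 of 15973 and 1663 of 16587, and DESeq2 called 353 of 16587. With the replicate block, which pairs both samples of a rat, the interaction called 19 genes (main 2), the PBBI hemispheres 31 (main 23) and the sham hemispheres 0. Of all genes, the blocked fits called 708 (main 54), 1646 (main 568) and 0 (main 0). Some contralateral log2 fold changes changed sign. Under voom these were Cxcl16 (-0.16, main 0.24), Ccr7 (0.12, main -0.41), Osm (-0.062, main 0.37), Tnfsf18 (-0.68, main 0.0665) and Tgfbi (-0.12, main 0.056). With 1 rat left out they were Cxcl12 (-0.22 to 0.046), Lif (-0.13 to 0.86), Il6r (-0.064 to 0.11), Il27ra (-0.23 to 0.35), Il21r (-0.054 to 0.25), Tnfsf18 (-0.26 to 0.23) and Tgfbi (-0.25 to 0.22). The cause was not tested. No ipsilateral log2 fold change of a gene of the set changed sign. Genes with few counts, such as Ccr4, Il17f and Tnfsf14, are limited by depth.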
